A study of Mus musculus with 5 samples.

Results

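Vesicle fusion genes were described in GFP-positive cells sorted from mouse lungs on postnatal day 2. The genes were the syntaxins, VAMPs, synaptotagmins, synaptotagmin-like proteins, syntaxin-binding proteins and the SNAP-25 family. They were chosen by gene symbol alone, and 50 genes with 117 probe sets matched, of 18194 genes with 34958 probe sets that carried a single symbol. Where a gene had several probe sets, the brightest on average stood for it. The pups carried SPC-GFP and came from matings with outbred ICR mice. There was 1 group, SPC-GFP on postnatal day 2, with 5 biological replicates and 1 one-colour Affymetrix array each, so no genotype, age or treatment was compared. The labels do not say which promoter fragment drives the GFP or whether a replicate pools several pups. P-values therefore rest on the variation between these 5 samples only.

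Membrane fusion is driven by SNARE proteins, which zip together across the gap between a vesicle and its target. A VAMP on the vesicle pairs with a syntaxin and a SNAP-25 family protein on the target membrane. Syntaxin-binding proteins of the Munc18 type clamp or guide the syntaxin, synaptotagmins act as calcium sensors or regulators, and synaptotagmin-like proteins tether vesicles through the small GTPase Rab27. Alveolar type 2 cells use this machinery to release lamellar bodies, the lysosome-related organelles that store surfactant. In rat type 2 cells, Stx2, Snap23 and Vamp2 have been linked to that step.

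Samples are named in 2 ways by the submitters, as alveolar type 2 cells in the titles and as ciliated cells in the design text. Signals above background were found for 10 of 10 alveolar type 2 markers, and also for 10 of 10 ciliated, 8 of 8 alveolar type 1, 6 of 7 club, 9 of 10 fibroblast, 8 of 8 endothelial and 12 of 13 immune markers. As 74.7% of all genes tested lay above background, these calls cannot decide between the 2 names. In these bulk samples fewer cells of a type and less RNA per cell cannot be told apart. Alveolar type 2 markers averaged 13.96 to 14.12 log2 units over the 5 replicates. Ciliated markers averaged 10.34 log2 units in replicate 1 and 8.90 to 9.70 in the other replicates. Levels of different genes are not comparable on these arrays, and which name applies was not tested. The bacterial spike controls bioB and bioC averaged 12.40 in replicate 1 and 11.48 to 11.61 elsewhere. Replicate 3 had the largest 3′ minus 5′ difference of the Gapdh and Actb controls, at 1.67 and 0.84 log2 units, against 1.27 to 1.60 and 0.54 to 0.60 in the others.

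Syntaxins, VAMPs, synaptotagmin-like and syntaxin-binding genes were all above background, and the genes that were not were Snap25 and 8 synaptotagmins. Of the 50 genes, 41 lay above the background set by 75 chemosensory receptor genes (5.48, 5.48, 5.48, 5.72 and 5.57 in replicates 1 to 5; limma's one-sided moderated test, Benjamini-Hochberg adjusted p under 0.05). Among all genes tested the share was 74.7%, so the total for the 50 genes was close to what the arrays show in general. By role, the calls were 6 of 6 plasma membrane syntaxins, 8 of 8 endomembrane syntaxins, 7 of 7 VAMPs, 3 of 3 synaptotagmin-like genes, 6 of 6 syntaxin-binding genes, 3 of 4 SNAP-25 family genes and 8 of 16 synaptotagmins. The 9 genes not above background were Snap25, Syt1, Syt2, Syt4, Syt6, Syt10, Syt13, Syt14 and Syt16. Many of their products are known from neurons or endocrine cells, but this does not separate them from the genes called. Stx1a, the neuronal syntaxin, and Syt9, a sensor of fast release in neurons, were above background. The median of the 50 genes lay 4.09 log2 units above background, against 3.40 for all genes.

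**Figure D1:**
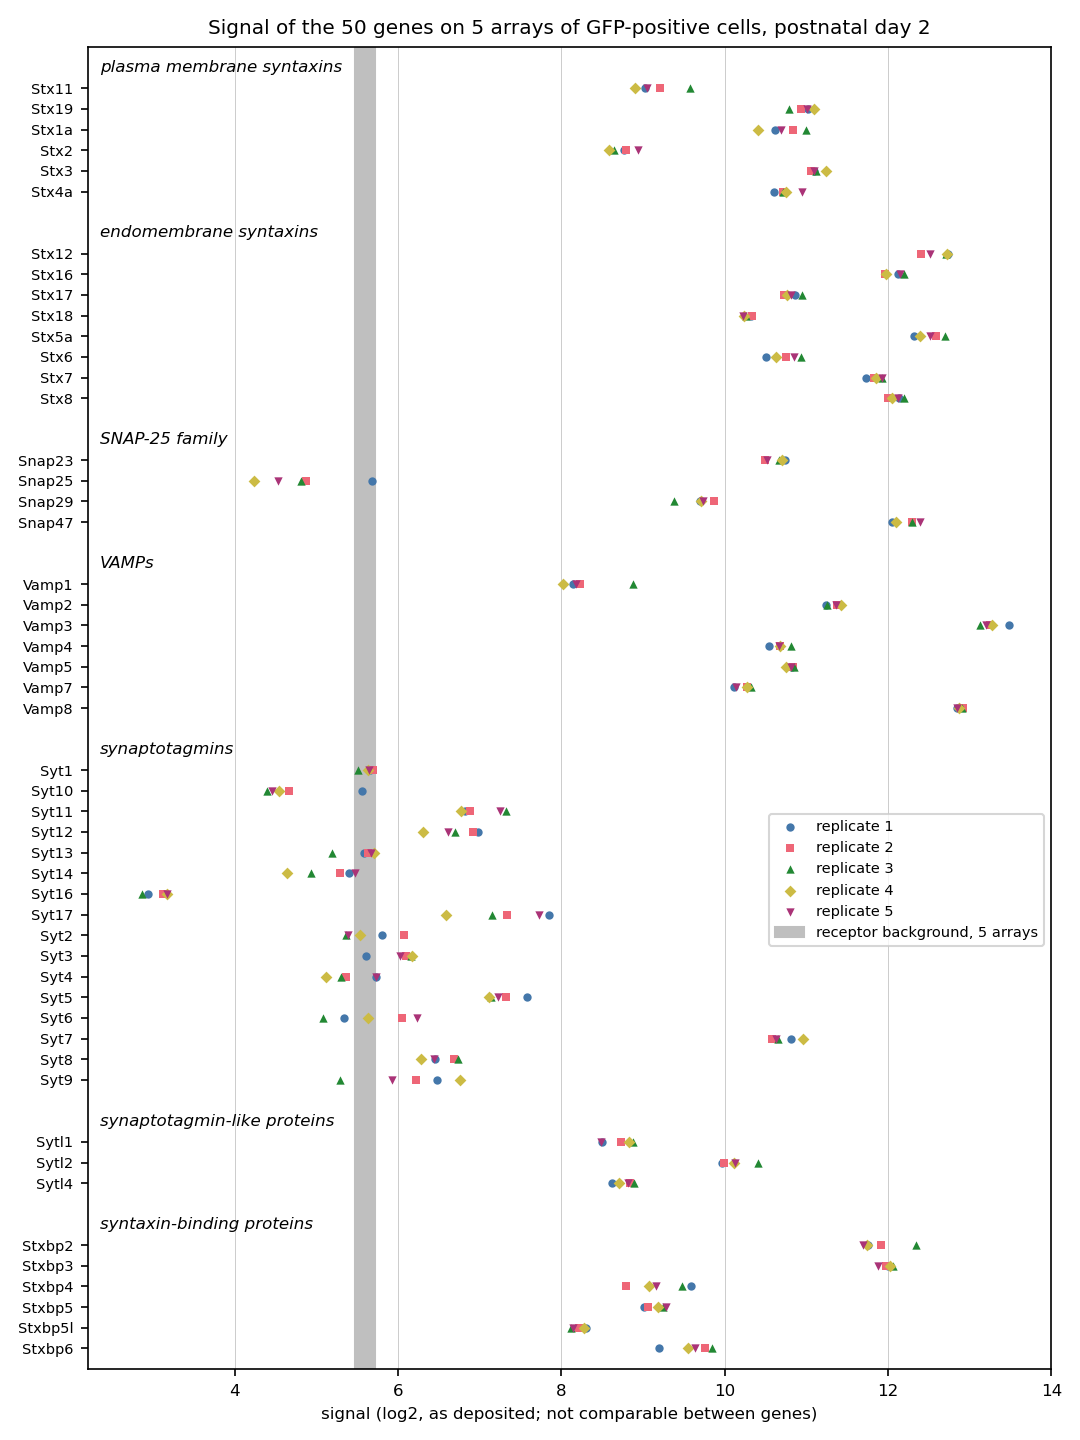
Each row is a gene, grouped by role, and each symbol is 1 of the 5 replicates on the deposited log2 scale; the grey band spans the receptor background of the 5 arrays (5.48 to 5.72). Snap25, Syt4, Syt10, Syt14 and Syt16 have means left of the band, Syt1, Syt2, Syt6 and Syt13 have means within it, and the remaining 41 genes have means to its right.

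A stricter background removed calls among the synaptotagmins only. With 48 genes restricted to other organs the background lay at 7.15 to 7.67, and 34 of the 50 genes remained above it, against 60.2% of all genes tested. The 7 genes lost were all synaptotagmins, namely Syt3, Syt5, Syt8, Syt9, Syt11, Syt12 and Syt17. All 7 lay within 1.78 log2 units of the receptor background, so their loss follows from the higher threshold and is not separate evidence. Of the 48 genes restricted to other organs, 12 were themselves above the receptor background, with a highest mean of 9.12. Syt7 was the 1 synaptotagmin above both backgrounds. No syntaxin, VAMP, synaptotagmin-like or syntaxin-binding gene was lost.

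**Figure D2:**
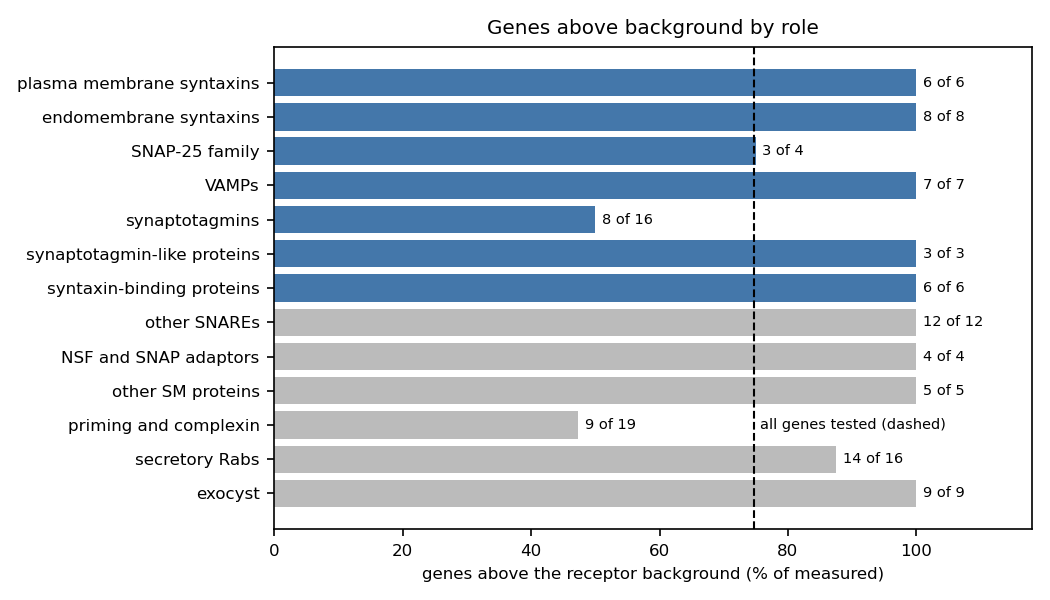
Bars give the percent of measured genes above the receptor background for the 7 roles (blue) and for 6 lists of other vesicle fusion genes (grey), with the counts beside them; the dashed line is the 74.7% of all genes tested. Synaptotagmins (8 of 16) and the priming and complexin list (9 of 19) fall left of the line.

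Upstream sequence was examined for what the genes share beyond their names. RefSeq windows (GRCm38.p6) were found for 39 of the 50 genes, some with several start sites, and the 250 bases before each start were used. The 40 windows of genes above background held a median of 14 CpG dinucleotides, and the 10 windows of genes not above background, from 6 synaptotagmins, a median of 18.5. Over all measured genes the medians were 15 in 13898 windows of genes above background and 4 in 4212 windows of genes not above it. The windows of these 6 synaptotagmins thus held more CpG than the median for genes not above background; the difference was not tested. Of letters searched on both strands, the GC box GGGCGG was in 20 of 40 and 9 of 10 windows (48.3% of all measured genes' windows), CCAAT in 13 and 3 (34.7%), TATAAA in 2 and 0 (8.81%), the E-box CACGTG in 3 and 3 (7.38%) and the cAMP response element TGACGTCA in 1 and 0 (2.12%). Over all measured genes above and not above background, the shares were 55.1% and 25.7% for GGGCGG, 34.2% and 36.5% for CCAAT, and 6.68% and 15.8% for TATAAA. They were 7.86% and 5.79% for CACGTG and 2.37% and 1.28% for TGACGTCA. No motif searched contains another, though matches can share end bases, and windows of 1 gene can overlap. Overlapping windows of Syt6 are among those with CACGTG. A match is only a run of letters.

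Shown here, 5′ to 3′ on the gene's strand with each CpG in capitals, are 4 of these windows. Stx11 and Stxbp2 encode partners in granule release and were both highest in replicate 3, as were 19 of the 41 genes above background. Vamp8 was above background and has a CpG-poor window, and Syt10 was not called and has a CpG-rich one. The windows are chr10:12964260-12964509 (minus strand, 21 CpG), chr8:3630859-3631108 (plus strand, 17 CpG), chr6:72390668-72390917 (minus strand, 3 CpG) and chr15:89841861-89842110 (minus strand, 32 CpG).
Stx11: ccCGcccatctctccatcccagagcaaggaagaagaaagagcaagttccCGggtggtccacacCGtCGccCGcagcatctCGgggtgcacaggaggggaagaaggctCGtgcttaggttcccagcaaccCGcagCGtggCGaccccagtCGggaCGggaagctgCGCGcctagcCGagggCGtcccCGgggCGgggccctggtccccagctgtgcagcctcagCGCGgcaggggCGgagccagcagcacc
Stxbp2: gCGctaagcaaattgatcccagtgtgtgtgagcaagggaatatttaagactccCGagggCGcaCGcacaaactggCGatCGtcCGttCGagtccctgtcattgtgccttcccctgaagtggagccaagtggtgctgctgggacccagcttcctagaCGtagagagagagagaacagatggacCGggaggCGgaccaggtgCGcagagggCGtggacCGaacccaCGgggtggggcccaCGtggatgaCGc
Vamp8: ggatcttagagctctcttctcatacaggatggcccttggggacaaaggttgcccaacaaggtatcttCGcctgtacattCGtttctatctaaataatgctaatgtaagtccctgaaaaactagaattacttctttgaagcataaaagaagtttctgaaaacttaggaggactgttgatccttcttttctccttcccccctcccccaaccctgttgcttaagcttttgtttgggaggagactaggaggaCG
Syt10: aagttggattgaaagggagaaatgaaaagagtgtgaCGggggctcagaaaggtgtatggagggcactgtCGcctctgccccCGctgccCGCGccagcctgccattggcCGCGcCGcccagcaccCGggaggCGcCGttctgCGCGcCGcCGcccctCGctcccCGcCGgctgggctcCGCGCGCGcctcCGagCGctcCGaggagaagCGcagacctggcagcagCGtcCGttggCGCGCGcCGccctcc

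Plasma membrane syntaxins, the target-side SNAREs of exocytosis, were all above background. Stx3, which sits at the apical surface of polarised epithelia, read 11.09, 11.06, 11.12, 11.24 and 11.09 in replicates 1 to 5 (11.12 ± 0.070, SD, n = 5). Stx4a, now called Stx4 and known from the basolateral surface, read 10.60, 10.71, 10.72, 10.75 and 10.94. Stx2 read 8.77, 8.79, 8.65, 8.58 and 8.94. The replicates of these 3 genes lay within 0.18, 0.34 and 0.36 log2 units of each other, and every replicate was above the array's background. Stx19, a syntaxin without a membrane anchor that is found in epithelia, had 10.96 ± 0.12. Stx1a, the neuronal syntaxin, had 10.71 ± 0.22 from an x_at probe set, which may pick up related transcripts. Its other probe set had 7.55 ± 0.22, which was above background too.

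Stx11, a syntaxin of cytotoxic granule release in human lymphocytes, had the widest span of the plasma membrane syntaxins, at 0.68 log2 units. Relative to the SD limma fitted for genes of like signal, its SD was 1.37-fold and that of Stx1a 1.66-fold. Stx11 read 9.03, 9.21, 9.58, 8.90 and 9.04, and its other probe set read 8.48, 8.70, 9.34, 8.69 and 8.69. Both probe sets were highest in replicate 3. The immune marker list averaged 9.36 log2 units in that replicate against 9.81 to 10.11 in the others, and the neutrophil list 8.57 against 9.37 to 10.68. Single immune markers differed: the lymphocyte markers Cd3e and Cd79a were lowest in replicate 4, at 6.13 and 7.11. The part of immune cells in the signal of Stx11 was not tested.

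Syntaxins of internal membranes were above background without exception. Stx5a (now Stx5) of the Golgi had 12.50 ± 0.15, Stx6 and Stx16 of the trans-Golgi network 10.73 ± 0.17 and 12.08 ± 0.11, and Stx12 of recycling endosomes 12.62 ± 0.15. Stx7 and Stx8, which act in fusion of late endosomes and lysosomes, had 11.85 ± 0.078 and 12.10 ± 0.074. Stx17, the syntaxin of autophagosomes, had 10.82 ± 0.086, and Stx18, which serves transport back to the endoplasmic reticulum, 10.28 ± 0.047. The replicates of these 8 genes spanned 0.11 to 0.42 log2 units. Of their 24 probe sets 23 were above background, against 72.1% of all probe sets tested. The exception was 1 of 3 for Stx8, at 5.53 ± 0.15. The values of Stx5a and Stx18 come from an s_at and an x_at probe set, which may pick up related transcripts. Probe sets of other kinds had 9.55 ± 0.14 for Stx5a, and 9.19 ± 0.11 and 8.77 ± 0.23 for Stx18.

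In the SNAP-25 family, Snap23 and Snap25 fell on opposite sides of background. Snap23, the broadly expressed partner of plasma membrane syntaxins, read 10.73, 10.50, 10.67, 10.70 and 10.51 in replicates 1 to 5. Snap25, its neuronal counterpart, read 5.69, 4.88, 4.81, 4.24 and 4.53. Only replicate 1 of Snap25 exceeded its array's background, and the mean difference was −0.72 ± 0.18 log2 units (SE, limma adjusted p = 1). All 3 probe sets of Snap23 were called and neither of the 2 of Snap25. Snap29, which acts with Stx17 in autophagosome fusion, had 9.68 ± 0.18. Snap47 had 12.23 ± 0.15 from an x_at probe set, and its ordinary probe set had 9.81 ± 0.12.

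VAMPs, the vesicle-side SNAREs, were all above background, and most differed little between replicates. Vamp8, or endobrevin, a VAMP of regulated secretion in exocrine cells, read 12.84, 12.92, 12.91, 12.87 and 12.84, a span of 0.08 log2 units or 1.06-fold. Vamp2 (synaptobrevin 2) read 11.25, 11.38, 11.25, 11.42 and 11.36. Vamp3, or cellubrevin, of recycling endosomes, read 13.49, 13.25, 13.13, 13.27 and 13.19. These 3 genes showed no replicate standing apart, and Vamp3 was highest in replicate 1. That probe set is also x_at, and an ordinary probe set of Vamp3 had 13.01 ± 0.030. Vamp4 of the trans-Golgi network had 10.67 ± 0.096, Vamp5 10.81 ± 0.041 and Vamp7, of late endosomes and lysosomes, 10.23 ± 0.091.

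Vamp1, or synaptobrevin 1, had the widest span of the VAMPs, at 0.85 log2 units. It read 8.14, 8.23, 8.87, 8.02 and 8.18, with replicate 3 alone at the high end. Its other probe set had 5.70 ± 0.21 and was not above background (limma adjusted p = 0.0579 over all probe sets). The signal of Vamp1 therefore rests on 1 of 2 probe sets. The SD that limma fitted for genes of like signal was 0.23 log2 units for Vamp1 and 0.079 for Vamp3. Relative to it the SD of Vamp1 was 1.44-fold and that of Vamp3 1.72-fold, so Vamp1 was not the less even for its signal.

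Synaptotagmins divided evenly, with 8 above background and 8 not. Of those whose C2 domains bind calcium, 4 of 8 were above background (Syt3, Syt5, Syt7 and Syt9), and of the others 4 of 8 (Syt8, Syt11, Syt12 and Syt17). Syt7, the high-affinity calcium sensor of lysosome exocytosis, read 10.81, 10.58, 10.65, 10.95 and 10.63. It lay 5.18 ± 0.076 log2 units above background (SE, limma adjusted p = 1.21e-17), and all 4 of its probe sets were called, with means from 6.05 to 10.72. The other 7 synaptotagmins called lay between 0.47 (Syt3) and 1.78 (Syt17) log2 units above it.

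Syt9, a sensor of fast release in neurons, had the largest span of the genes called. It read 6.47, 6.22, 5.29, 6.76 and 5.92, and replicate 3 fell below its array's background. Syt17 read 7.85, 7.33, 7.15, 6.59 and 7.72, lowest in replicate 4. Syt12 read 6.97, 6.92, 6.70, 6.31 and 6.61. Syt17, Syt12 and Syt5 were highest in replicate 1 and lowest in replicate 4, whereas Syt9 was highest in replicate 4. Syt3 read 5.61, 6.10, 6.16, 6.17 and 6.03, Syt5 averaged 7.27 ± 0.19, Syt8 6.52 ± 0.19 and Syt11 7.01 ± 0.25.

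Among the synaptotagmins not called, Syt1, the main calcium sensor of synaptic vesicles, read 5.65, 5.69, 5.51, 5.63 and 5.64 (limma adjusted p = 0.327), and none of its 4 probe sets was called. Syt2, its close relative, read 5.80, 6.07, 5.36, 5.54 and 5.39 (adjusted p = 0.360). Syt6 read 5.34, 6.04, 5.08, 5.63 and 6.23 (adjusted p = 0.303). Values of Syt2 and Syt6 fell on both sides of their arrays' background. Syt13 read 5.58, 5.63, 5.20, 5.71 and 5.66 (adjusted p = 0.595) and Syt4 5.73, 5.37, 5.30, 5.11 and 5.73 (adjusted p = 0.959). Syt14 read 5.40, 5.28, 4.94, 4.64 and 5.48, and Syt16 2.94, 3.12, 2.86, 3.17 and 3.17, below background on every array. Syt10 was above background in replicate 1 alone, with 5.56, 4.67, 4.39, 4.54 and 4.45. Signals near the background cannot show that a transcript is absent.

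Of 12 neuroendocrine and neuronal markers measured, 6 were above background (Chga, Chgb, Resp18, Scg5, Syp and Uchl1) and 6 were not (Elavl3, Elavl4, Insm1, Neurod1, Scg2 and Tubb3). Among all genes tested 74.7% were above background. The list averaged 6.47, 5.98, 5.76, 5.81 and 5.89 log2 units in replicates 1 to 5, and 9 of the 12 genes were highest in replicate 1. So were 9 of 10 ciliated markers, against 22.4% of all genes above background. Of the 9 genes not called, 3 were highest in replicate 1 (Snap25, Syt4 and Syt10), and Syt1, Syt2, Syt6, Syt13, Syt14 and Syt16 were highest in other replicates. No share over all genes not called was taken for comparison. The part of neuroendocrine or ciliated cells in the signals of Snap25, Syt4 and Syt10 was not tested.

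**Figure D3:**
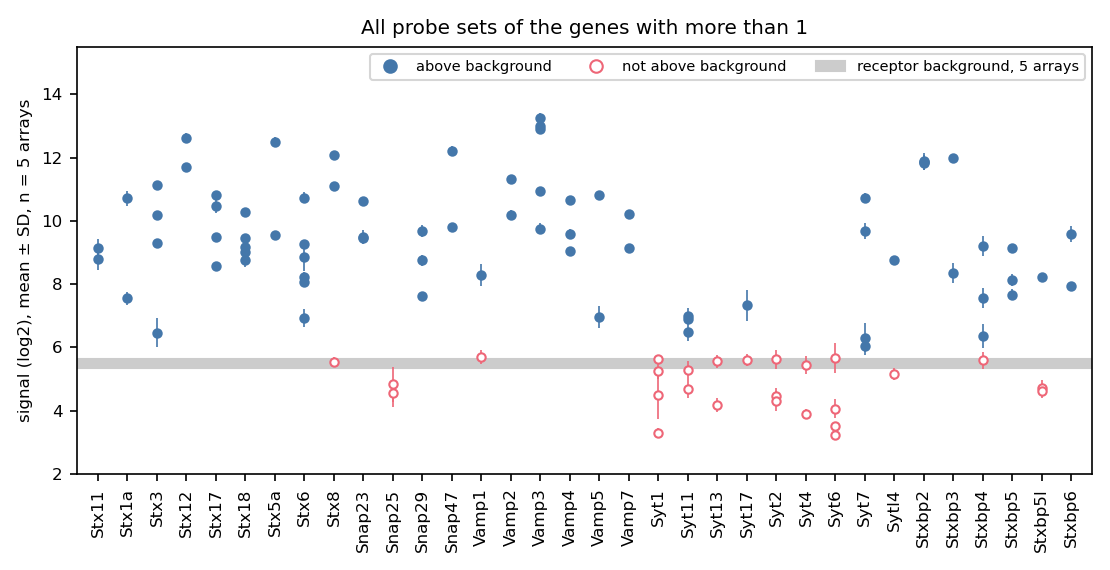
Every probe set of the 34 genes with more than 1 is shown as mean ± SD on the log2 scale (n = 5 arrays), filled where it was above background and open where it was not; the grey band is the receptor background over probe sets. The probe sets of 7 genes fall on both sides of background, those of 21 genes all above and those of 6 genes all not above.

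Choosing the brightest probe set favours a call, so every probe set was also tested. Of the 117 probe sets, 88 were above background in a fit over all probe sets, where 72.1% were. Synaptotagmins had 13 of 34, and plasma membrane syntaxins 11 of 11. In 7 genes the probe sets disagreed: Stx8, Vamp1, Syt11, Syt17, Sytl4, Stxbp4 and Stxbp5l. For Stxbp5l, or tomosyn-2, the called probe set had 8.21 ± 0.079 and the other 2 had 4.71 ± 0.25 and 4.62 ± 0.21.

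Synaptotagmin-like genes, whose products bind Rab27 on secretory vesicles, were above background in each replicate. Sytl1 read 8.50, 8.73, 8.88, 8.83 and 8.48, Sytl2 9.97, 9.99, 10.40, 10.11 and 10.13, and Sytl4, also called granuphilin, 8.62, 8.84, 8.89, 8.70 and 8.81. All 3 were highest in replicate 3. Their partners Rab27a and Rab27b were above background as well, at 12.08 ± 0.10 and 12.79 ± 0.15. Sytl3 and Sytl5 were not analysed here.

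Syntaxin-binding genes were all called. Stxbp2 encodes Munc18-2, the partner of Stx11 and Stx3 in granule release, and read 11.75, 11.92, 12.34, 11.75 and 11.69. Replicate 3 was highest in all 3 of its probe sets, of which 2 are x_at, and without it the values span 11.69 to 11.92. Stxbp3 (Munc18c, the partner of syntaxin 4) averaged 11.99 ± 0.068, with its lowest value of 11.88 in replicate 5 and its highest of 12.06 in replicate 3. Stxbp4, or Synip, which binds syntaxin 4, read 9.59, 8.79, 9.47, 9.07 and 9.15, high in replicates 1 and 3. Its probe sets disagreed on this: another that was above background read 7.80, 7.69, 7.03, 7.77 and 7.56, lowest in replicate 3. Stxbp6, or amisyn, read 9.19, 9.76, 9.85, 9.55 and 9.64 and was low in replicate 1. Stxbp5, or tomosyn, averaged 9.16 ± 0.12.

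The spread between replicates of these genes was close to that of other genes above background. The median SD of the 41 genes above background was 0.148 log2 units, against 0.154 for all 13540 genes above background. In 23 of the 41 the SD was under the SD limma fitted for genes of that signal, against 50.9% of all genes above background (56.1% of the 41). A one-sided F test of each gene's variance against that fitted variance called 0 of the 50 genes at an adjusted p under 0.05, where 0% of all 18194 were called. Even the heart muscle genes Myl7 and Tnnt2, with SDs of 1.33 and 1.41 log2 units, had an adjusted p of 0.81, so a gene that was not called is not shown to be stable. At an unadjusted p under 0.05 it called Stxbp2 alone (adjusted p = 0.893), against 5.58% of all genes. In 4 of the 50 genes (Vamp1, Syt3, Syt10 and Syt13) 1 replicate stood apart from the other 4 by Dixon's test, against 5.49% of all genes.

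**Figure D4:**
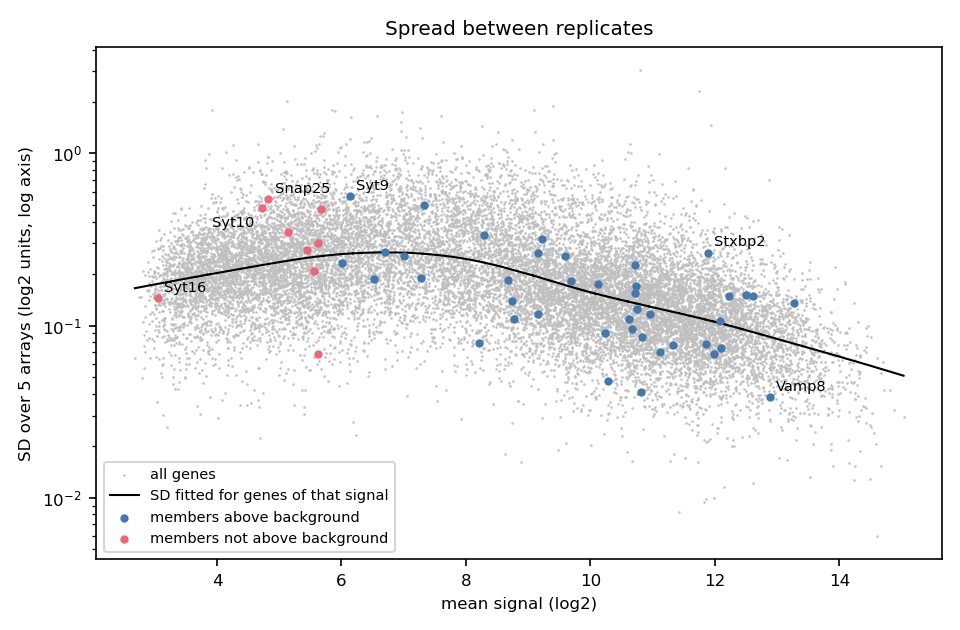
Each point is a gene, with its mean log2 signal on the x axis and its SD over 5 arrays on a logarithmic y axis; the line is the SD fitted for genes of that signal. Genes of the set above (blue) and not above background (red) lie on both sides of the line, Stxbp2 (SD 0.27) above it and Vamp8 (SD 0.038) below it.

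Replicate 3 was the highest of the 5 for many of these genes. Of the 41 genes above background, 19 (46.3%) were highest there, against 26.6% of all genes above background, and 14 (34.1%) were lowest in replicate 1, against 22.8%. The shifts were small: the mean deviation of the 41 genes, after subtracting each array's median deviation of all called genes, was −0.01, 0.00, 0.07, −0.03 and −0.02 log2 units in replicates 1 to 5. Of the 19, 13 had more than 1 probe set above background, and in 8 of these all such probe sets were highest in replicate 3. The 8 were not a single role: they were Stx11, Stx1a, Stx5a, Vamp4, Vamp5, Stxbp2, Stxbp3 and Stxbp6. Replicate 3 is also the array with the largest 3′ minus 5′ control differences, and 9 of 10 fibroblast markers and 9 of 13 immune markers were lowest there. Of the alveolar type 1 markers, 5 of 8 were highest in replicate 3. Their mean deviation, taken in the same way, was −0.21, 0.11, 0.13, −0.09 and 0.07 log2 units in replicates 1 to 5. It was highest in replicate 3, as for the 41 genes. It was lowest in replicate 1, whereas that of the 41 genes was lowest in replicate 4. Of the alveolar type 2 markers, 2 of 10 were highest in replicate 3, and their mean deviation was 0.04, −0.03, 0.02, 0.08 and −0.11 log2 units. The part of RNA quality, of alveolar type 1 cells or of other cell types in this pattern was not tested.

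**Figure D5:**
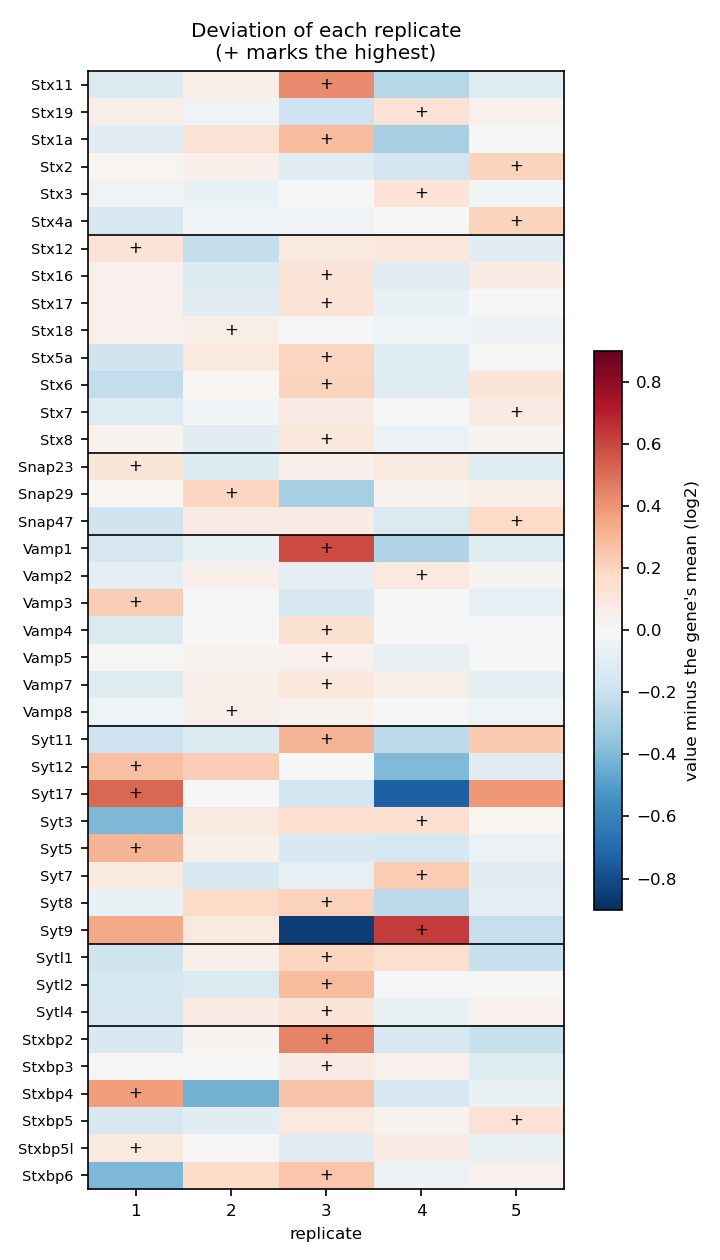
Colours give each replicate's value minus the gene's mean (log2) for the 41 genes above background, ordered by role with lines between roles; a plus marks the highest replicate. The plus falls in replicate 3 for 19 genes, and the strongest colours belong to Syt9 and Syt17.

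The rest of the fusion pathway was read from 6 lists of known fusion genes, written by function with earlier results of these data known. Of 65 other vesicle fusion genes 53 were above background, again against 74.7% of all genes. Complete were the other SNAREs (12 of 12, such as Ykt6 at 11.61 ± 0.081), NSF and its adaptors, which take spent SNARE complexes apart (4 of 4, Nsf at 10.86 ± 0.13), other Munc18-like proteins (5 of 5) and the exocyst, which tethers vesicles (9 of 9). Secretory Rab genes and their effectors were above it in 14 of 16 cases, all but Rab26 (5.50 ± 0.28) and Rab37 (5.00 ± 0.21).

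Priming factors and complexins divided as the synaptotagmins did, with 9 of 19 above background. Those above it included Unc13d (9.92 ± 0.34), which primes cytotoxic granules, Unc13b (11.16 ± 0.18), Cadps2 (11.91 ± 0.15), Rph3al (12.06 ± 0.15), Doc2a (9.82 ± 0.11) and Cplx2 (8.77 ± 0.24). Also above it were Baiap3 (8.50 ± 0.18), Doc2g (7.68 ± 0.34) and Cplx1, which was close to background (5.92 ± 0.41, limma adjusted p = 0.0155). The 10 not above background were Cadps, Cplx3, Cplx4, Doc2b, Otof, Rims1, Rims2, Rph3a, Unc13a and Unc13c. Unc13d read 9.56, 10.02, 10.36, 9.59 and 10.06, highest in replicate 3 like Stx11, Stxbp2 and 26.6% of all genes above background. Other genes of regulated secretion peaked elsewhere: Rab27a in replicate 1, Vamp8 in replicate 2 and Stx3 in replicate 4. Rims2 read 6.87, 4.76, 4.73, 6.29 and 4.87, high in replicates 1 and 4 only.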

How the data were processed

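The authors' deposited table held 1 value per probe set and array for 45101 probe sets on a log2 scale. The base was inferred from the range of the values (2.46 to 15.24), while background correction, normalization and software are not given in the sources at hand. Per the labels' protocols, total RNA was amplified and biotin-labelled with NuGEN kits. The 5 medians were 7.12 to 7.19, so values were used as deposited. Scanner files were not used here, and saturation was not checked. A platform annotation of the probe sets gave 34958 with 1 gene symbol and 932 with several; the rest were unnamed here, and only the first kind was used. No coordinates of probes are given. Levels were not ranked between genes, and the number of arrays limits the precision.

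Background was the 95th percentile of 75 olfactory, vomeronasal and taste receptor genes on each array (4 of the 75 were called themselves). An intercept was fitted to value minus background (limma 3.58.1 under R 4.3.3, eBayes with trend) and tested one-sided, adjusted over the other 18119 genes at 0.05. The p-values of this test take each array's background as fixed and do not cover the choice of background genes. Spread between replicates was tested by an upper-tail F test (4 and 4.22 degrees of freedom) against the variance of a robust eBayes fit with trend. Both tests were checked on simulated data; with variances scattered as widely as here, the adjusted spread test called only very large excesses, so its non-calls carry no weight. The genes named were a set list of exocytosis genes, those not above background, the 10 called genes with the largest range, those whose call changed under an alternative, those with a replicate apart and those past the spread test; the remaining genes are given by mean and SD. The genes, lists and roles were chosen with earlier results of these data known. Alternatives are given in the closing section.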

Additional observations from a re-analysis of the deposited data

Results flagged for a closer look

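In 4 of the 50 genes (against 5.49% of all genes) 1 replicate stood apart from the other 4 by Dixon's test; chance gives about 1 in 20. Vamp1 read 8.87 in replicate 3 and 8.02 to 8.23 in the others. Syt10 read 5.56 in replicate 1 and 4.39 to 4.67 in the others, all near or below background. Syt13 read 5.20 in replicate 3 and 5.58 to 5.71 in the others. Syt3 read 5.61 in replicate 1 and 6.03 to 6.17 in the others. For Vamp1 the second probe set had 5.97 in replicate 3 and 5.43 to 5.84 in the others, and it was not above background as a whole.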

How the results depend on the processing

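The count of 41 genes above background ran from 34 to 46 over 15 alternatives, and was 41 without any 1 replicate and 42 without replicates 1 and 3 together, a setting chosen after seeing the data. For 37 of the 50 genes the call did not change in any of these that tested them. A filter on low signal was among the alternatives and kept only 41 of the 50 genes. It called 99.5% of all genes kept, so it could change few calls. With the 90th percentile of the receptor genes 46 genes were called, adding Syt1, Syt2, Syt4, Syt6 and Syt13. With the 99th percentile 37 were, and Syt3 and Syt9 lay −0.48 and −0.37 log2 units from background, while Syt12 and Syt8 were no longer called. With organ-restricted genes Syt11, Syt12, Syt17, Syt3, Syt5, Syt8 and Syt9 lay at −0.43, −0.73, −0.11, −1.42, −0.16, −0.92 and −1.30. With the median over probe sets Stxbp5l lay at −0.55, as 2 of its 3 probe sets were below background. Syt6 was called without replicates 1 and 3 (0.38). The spread test called 0 of the 50 genes under each alternative run, and 0 to 2 at an unadjusted p under 0.05. Quantile normalization and median centring left 41 genes called. No paired analysis was possible because all samples belong to 1 group. Whether transcripts near the background were present is limited by the arrays' signal over background.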
